A study of Mus musculus with 2 samples.

Results

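In liver cells sorted for the lymphocyte surface proteins CD122 and CD49a, 228 of 1248 cells (18.27%, 95% interval 16.16 to 20.53%) carried transcripts of dendritic cells and monocytes. These cells were chosen by their own counts. Each had at least 2 unique molecular identifiers (UMIs, single counted transcripts) summed over Cd209a, Clec10a, Csf1r, Ccr2 and Ms4a6c, and none of the 8 genes Xcr1, Tlr3, Ace, Treml4, Siglech, Cd3d, Cd3e and Cd3g. They are called the members here, and they are 228 of the 4313 cells kept over both libraries of the study.

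The study asked which haematopoietic progenitors the adult mouse liver holds, and read single cells by droplet RNA sequencing. Both libraries came from the liver of C57BL/6 mice aged 7 to 10 weeks, with no treatment or engineered allele named. The LSM library was sorted as CD45+Lin-Sca-1+Mac-1+ cells and the other as CD45+Lin-CD122+CD49a+ cells. Each gate had 1 library, and the number of mice behind it and the lineage antibodies are not given in the sources used here. No p-value is therefore given, no difference has a replicate check, and every interval is an exact 95% interval that covers the counting error of summed UMIs only. Differences between mice, sorts or runs cannot be told apart from differences between gates.

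Mononuclear phagocytes are the family of dendritic cells, monocytes and macrophages. Type 2 conventional dendritic cells take up antigen and present it on MHC class II to CD4 T cells, and in mice they often carry the C-type lectins CD209a and CLEC10A. Monocytes leave the marrow through the chemokine receptor CCR2, depend on the receptor CSF1R, and can become macrophages or antigen-presenting cells in the liver, where Kupffer cells are the resident macrophages. CD122 is the beta chain of the receptors for interleukin-2 and interleukin-15 and CD49a is integrin alpha 1, and the pair is used to sort liver-resident innate lymphocytes.

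The CD122+CD49a+ matrix held 1655 barcodes with a median of 1215 UMIs and the LSM matrix 3133 barcodes with a median of 5032. A barcode counted as a cell when it had 500 or more genes with a UMI and no more than 10% of its UMIs were mitochondrial. The libraries shared 3 barcodes, and none of them was a member. Of the members, 2 were among the cells with the highest doublet scores. The members had a median of 1988.5 UMIs (725 to 13043) and 869.5 genes per cell. For levels, every cell was thinned at random to 1500 UMIs, which 156 members reached and 72 did not, so the values below describe the deeper members. Levels are summed UMIs scaled to a total of 1000000 (CPM).

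The genes that chose the members were spread unevenly over them. Ccr2, the receptor for the monocyte chemoattractant CCL2, had a UMI in 181 of the 228 members. Ms4a6c, a membrane protein gene of the Ms4a cluster, had one in 147. Csf1r, the receptor for the growth factor of monocytes and macrophages, had one in 118. Cd209a, the mouse relative of the lectin DC-SIGN, had one in 111, and Clec10a, the galactose-binding lectin of macrophages and dendritic cells, in 79. A lectin together with Csf1r or Ccr2 was seen in 116 members, Csf1r or Ccr2 without a lectin in 86, a lectin without Csf1r or Ccr2 in 22, and Ms4a6c alone in 4. Cd209a and Csf1r were seen together in 40 members. Of the 5 genes, 1 was detected in 24 members, 2 in 66, 3 in 89, 4 in 32 and all 5 in 17. These counts describe the choice and support nothing by themselves.

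**Figure D1:**
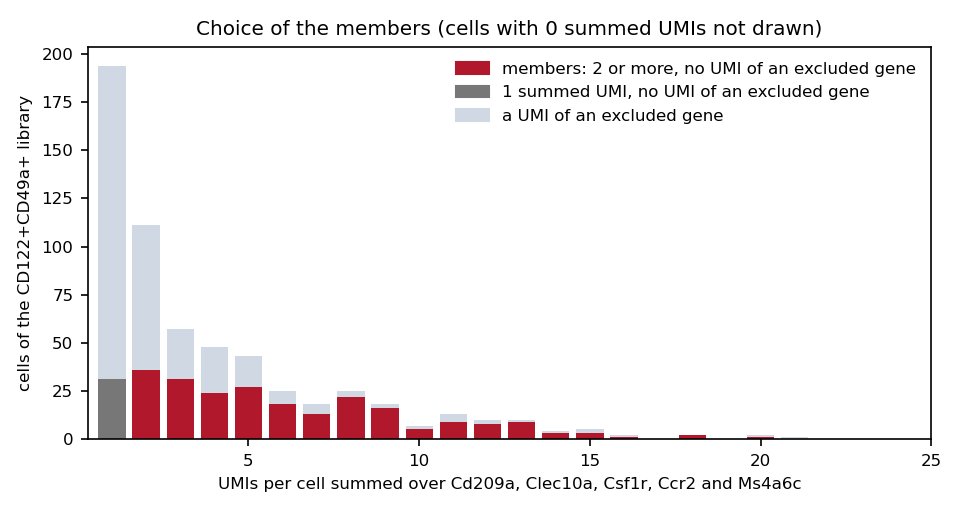
Number of CD122+CD49a+ cells (vertical axis) by the UMIs a cell held over the 5 chosen genes (horizontal axis). Red bars are the 228 members, the grey bar the 31 cells with 1 UMI and no excluded gene, and pale bars cells with a UMI of an excluded gene. Member counts run from 2 to 20 with a median of 5, and no gap separates members from the cells below the threshold.

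In all, 401 cells reached 2 summed UMIs, and 173 of them were left out for an excluded gene. Of these, 57 held Xcr1 or Tlr3, 59 held Ace or Treml4, 73 held a CD3 gene and 0 held Siglech, with overlaps. The 36 members at 2 summed UMIs lay just inside the threshold. Their level of an MHC class II list of 8 genes was 44752 CPM and that of a 12-gene list of NK cells and innate lymphocytes of group 1 was 2760 CPM. The 31 cells at 1 summed UMI lay just outside, with 28641 CPM of the class II list and 4445 CPM of the lymphocyte list. Members with 6 or more summed UMIs had 57510 and 715 CPM of these lists. These levels are of the counts as deposited, over all cells of each group, with median depths of 1064.5, 1451 and 2479.5 UMIs. They were therefore not at equal depth. On these counts the edge of the group was a range and not a step.

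A marker that took no part in the choice was also read in the members. Ms4a4c, a neighbour of Ms4a6c on chromosome 19, had a UMI in 83 of the 228 members and in 1 of 482 cells of the same library with at least 2 UMIs of the CD3 genes and none of the 5 chosen genes (CD3 cells, with a median of 1321 UMIs). At 1500 UMIs the 8 class II genes summed to 54821 CPM in the members and to 319.5 CPM in the CD3 cells. Cd74, the invariant chain that guides class II molecules, had 23197 CPM in the members and 126 CPM in the CD3 cells. Lyz2, lysozyme, had 4513 CPM against 7.89 CPM. Spi1, the transcription factor PU.1 of myeloid cells, had 504 CPM against 3.95 CPM. Since CD3 cells were barred from the 5 genes and members from CD3, these differences follow the choice in part and are given as a description. They do not tell the members from other myeloid cells of the library. Cells with at least 2 UMIs of Xcr1 and Tlr3 had 40394 CPM of the class II list, 455 CPM of Lyz2 and 242 CPM of Spi1. Cells with at least 2 UMIs of Ace and Treml4 had 25762, 10857 and 762 CPM.

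The proteins used for the sort had few transcripts in the members. Il2rb, the gene of CD122, had a UMI in 4 of 228 members and in 247 of 482 CD3 cells. At equal depth Il2rb stood at 21.4 CPM in the members, 426 CPM in the CD3 cells and 20.2 CPM in cells of the same library with at least 2 UMIs of Xcr1 and Tlr3, genes of type 1 dendritic cells. Itga1, the gene of CD49a, had a UMI in 1 member and in 46 CD3 cells, and 0 UMIs in the members at equal depth. Ptprc, the gene of CD45, had a UMI in 205 members. A transcript count does not measure surface protein, and how these cells came through the gate was not tested.

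Lymphocyte transcripts were read in the members as a share of their level in the CD3 cells. Nkg7, a granule protein, was at 0.43% of that level and Gzma, granzyme A, at 1.26%. Ccl5, a chemokine abundant in killer lymphocytes, was at 1.60%, Il2rb at 5.02% and Xcl1, the ligand of XCR1, at 5.10%. Thy1, Cd2, Cd5, Lck and Bcl11b had 0 UMIs at equal depth, although Thy1 had a UMI in 2 of 228 members on the counts as deposited. Members were barred from the CD3 genes and the CD3 cells were chosen by them, so these low levels follow the choice in part. Klrd1, a chain of the CD94 receptor of NK cells, stood apart at 32.5%, with 269 CPM in 38 of 156 members against 40.4 CPM in the Xcr1 Tlr3 cells of the same library. Klrd1 was 682 CPM in the LSM cells with Cd209a described next, so that its level in the members was 2.53-fold lower than there, and 1.65-fold lower with Cd209a as the choice in both libraries. Free RNA from lysed cells reaches all droplets of a library, and its part in the low lymphocyte counts was not tested.

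Markers of other cells ranged from absent to present at low levels. S100a8, S100a9 and Ly6g of neutrophils had 0 UMIs, although the 8-gene neutrophil list summed to 51.3 CPM in the members and 1.87 CPM in the LSM comparison cells. Its 12 UMIs in the members were all of Csf3r and Mmp8, and the other 6 genes had 0. The platelet, erythroid and T cell lists were at 0, and Cd3d, Cd3e and Cd3g of the T cell list were barred by the rule. The basophil and mast cell list was at 4.27 CPM, the B cell list at 38.5 CPM, the hepatocyte list at 209 CPM and the liver endothelial list at 21.4 CPM. Trf, transferrin, gave 197 CPM of the hepatocyte value, and Alb, albumin, 1 UMI. Ccr7, of migrating mature dendritic cells, had 0 UMIs, and the mature dendritic cell list was at 72.7 CPM. The plasmacytoid dendritic cell list was at 427 CPM in 64 of 156 members, of which Bst2, an interferon-induced protein of many cells, gave 308 CPM, and Siglech, which was barred, and Cox6a2 had 0 UMIs. The type 1 dendritic cell list was at 218 CPM in 38 members. The plasma cell list was at 111 CPM in 24, of which Xbp1, a factor of secretory cells, gave 107 CPM, and Jchain and Mzb1 had 0 UMIs. The Kupffer cell and macrophage list was at 385 CPM in 25 members, mostly from the C1q genes described below.

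Among dendritic cell and monocyte markers that did not choose the members, both sides were present. Mgl2, a lectin related to Clec10a, had 248 CPM in 25 of 156 members, and Sirpa, a signal regulatory receptor of type 2 dendritic cells and monocytes, 226 CPM in 37. Flt3, the receptor that dendritic cells need to develop, had 94.0 CPM in 19 members, and Zbtb46, a transcription factor of conventional dendritic cells, 21.4 CPM in 5. Ly6c2, a marker of classical monocytes, had 51.3 CPM in 10 members, and Plac8, also high in these monocytes, 1261 CPM in 108. F13a1, coagulation factor XIII of monocytes, had 81.2 CPM in 16. Il1b, interleukin-1 beta, had 137 CPM in 24. The group is therefore called the members by its rule and not by a single cell type.

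The comparison group was 713 LSM cells with at least 2 Cd209a UMIs, of which 712 reached 1500 UMIs. Their median as deposited was 5782 UMIs, so 2 Cd209a UMIs were easier to reach there. They were chosen by Cd209a alone and were not barred from the 8 excluded genes, so the groups differ in how they were chosen as well as in gate. A matched choice was therefore made after thinning in both libraries, either of cells with at least 2 Cd209a UMIs and no excluded gene (45 and 312 cells) or of cells under the whole 5-gene rule (158 and 833 cells). Where a matched choice moved a printed ratio by more than 1.5 times, its value is given beside the ratio.

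Of 3936 genes with at least 30 UMIs over both groups, 711 (18.1%) were at least 2-fold higher in the members and 560 (14.2%) at least 2-fold lower, with a median log2 ratio of -0.03 over all of them. The split depended on the scaling: TMM gave 332 higher and 1180 lower, with the median at -0.53, and DESeq2 size factors gave 343 higher and 1131 lower, with the median at -0.49. Ratios near 1 therefore have no fixed direction, and the list counts below should be read against 18.1% and 14.2%. With Cd209a as the choice in both libraries, 157 of 1867 genes were higher and 382 lower.

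Genes of type 2 dendritic cells did not move one way. Cd209a, at chr8:3743397-3748984 on the minus strand of GRCm38, was 705 CPM (602 to 821) in the members and 1159 CPM in the LSM cells chosen by it, and stood at a ratio of 0.96 when Cd209a chose both groups. Clec10a was 359 CPM against 294 CPM. Ms4a6c was 633 CPM against 691 CPM, and Ms4a4c 312 CPM against 365 CPM. Mgl2 was 2.28-fold higher (1.64 to 3.15), but 1.33-fold with Cd209a as the choice in both. Sirpa was 3.72-fold higher (2.54 to 5.43), and 1.95-fold under that choice. Itgax, the integrin chain CD11c, was 261 CPM against 53.4 CPM, or 4.88-fold higher (3.35 to 7.14), with 3.47-fold and 4.48-fold under the matched choices. Of the 5 type 2 genes outside the rule, 2 were at least 2-fold higher and 2 lower, the latter being Cd7, a surface protein of T cells and some dendritic cells, and Tnfsf9, the ligand of 4-1BB. With Cd209a as the choice in both, 0 of 4 were higher and the same 2 were lower, Tnfsf9 at a ratio of 0.14 (0.0035 to 0.83) on 1 UMI in the CD122+CD49a+ cells, and under the 5-gene rule 2 of 5 were higher and 2 lower.

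**Figure D2:**
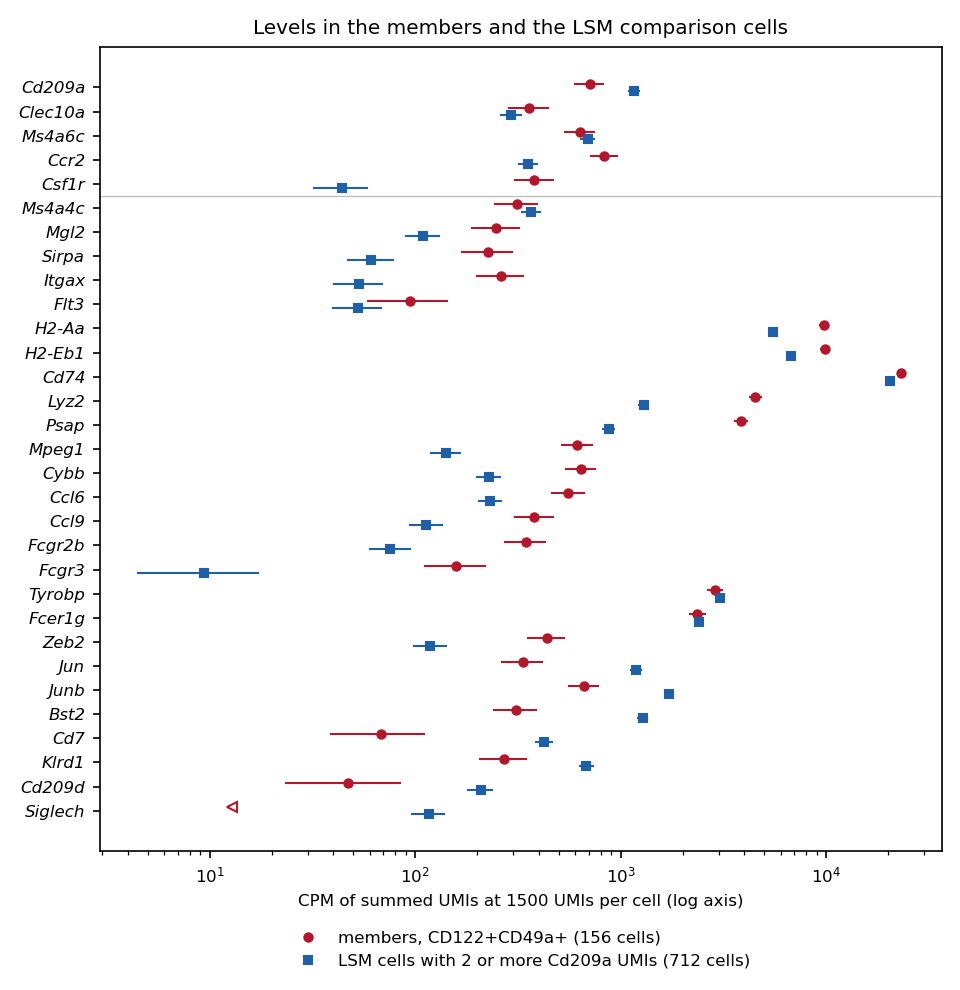
CPM at 1500 UMIs per cell (horizontal log axis) for named genes in 156 members (red) and 712 LSM cells with Cd209a (blue), with bars for the 95% counting interval; an open triangle marks 0 UMIs at the value of 3 counts. Genes above the grey line chose the members. Csf1r is 380 CPM against 44.0 CPM, Lyz2 4513 against 1291 and Jun 333 against 1182, while the intervals of Tyrobp and of Fcer1g overlap.

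Csf1r and Ccr2 chose the members and not the LSM cells, so their higher levels are part of the choice. Csf1r was 380 CPM (305 to 468) in the members and 44.0 CPM in the LSM cells, 8.64-fold, and Ccr2 829 CPM against 354 CPM, 2.34-fold. Under the 5-gene rule in both libraries Csf1r was 3.25-fold and Ccr2 1.90-fold higher in the CD122+CD49a+ cells, and with Cd209a as the choice in both 4.44-fold and 2.10-fold. Csf2rb, the beta chain of the GM-CSF receptor, took no part in the choice and was 124 CPM against 37.5 CPM, 3.31-fold higher (1.98 to 5.47). Csf2ra, its alpha chain, was 175 CPM against 146 CPM.

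Of 10 genes of a list of lysozyme and other secreted or defence proteins of myeloid cells, 6 were at least 2-fold higher and 0 lower, with a median log2 ratio of 1.22. By TMM 3 were higher, with a median of 0.73, and 3 were higher with Cd209a as the choice in both. Lyz2 had 4513 CPM (4245 to 4793) in the members and 1291 CPM in the LSM cells. The near-identical gene Lyz1 shares sequence with it, so the split of reads between them is uncertain. The 3.50-fold difference in Lyz2 was 1.47-fold with Cd209a as the choice in both and 2.08-fold under the 5-gene rule. Psap, the precursor of the saposins that help break down sphingolipids, was 3846 CPM against 874 CPM, 4.40-fold. Mpeg1, the pore-forming perforin-2, was 615 CPM against 141 CPM, 4.35-fold. Cybb, the catalytic chain of the phagocyte oxidase, was 641 CPM against 228 CPM, 2.81-fold, and 1.94-fold with Cd209a in both. Wfdc17 was 833 CPM against 690 CPM.

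Cathepsins, the proteases of lysosomes, went both ways, and their list with cystatin C summed to 9346 CPM in the members and 12125 CPM in the LSM cells. Of 10 genes, 2 were at least 2-fold higher and 1 lower, with a median log2 ratio of -0.26, and by TMM 2 were higher and 3 lower. Ctsc, which activates granule proteases, was 325 CPM against 112 CPM, 2.89-fold higher. Ctss, which trims the invariant chain, was 1013 CPM against 1100 CPM. Cst3, cystatin C, was 5316 CPM against 7010 CPM, and Ifi30, a reductase of antigen processing, 1107 CPM against 1873 CPM. Ctsl had 0 UMIs in the members and 150 CPM in 59 LSM cells, at least 11.7-fold lower. This bound was 2.15-fold under the 5-gene rule in both libraries and 1.46-fold against LSM cells with no excluded gene. Against the latter cells 3 of 9 genes of the list were higher and 0 lower.

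MHC class II genes were slightly higher by total scaling and not by TMM. H2-Aa, an alpha chain of class II, was 9756 CPM in 154 of 156 members and 5534 CPM in the LSM cells, 1.76-fold. H2-Eb1 was 9872 CPM against 6708 CPM and Cd74 23197 CPM against 20537 CPM. H2-DMa, a chain of the peptide loader of class II, was 979 CPM against 980 CPM. Ciita, the transactivator of class II genes, was 94.0 CPM against 28.1 CPM, 3.35-fold, and the only 1 of the 8 genes past 2-fold. With Cd209a as the choice in both it was 6.93-fold (2.59 to 18.6), on 10 UMIs in each group. The median of the list was 0.56 on the log2 scale and 0.07 by TMM. The class I list had a median of 0.35, which turned to -0.14 by TMM and to -0.35 with Cd209a as the choice in both.

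Receptors that dampen or tune phagocytes were higher in 5 of 7 genes, with a median log2 ratio of 1.72, and 1.23 by TMM. With Cd209a as the choice in both, 2 of 4 were higher and 1 lower. Pirb, a paired inhibitory receptor for class I molecules, was 346 CPM in 49 members and 103 CPM in the LSM cells, 3.36-fold. Lilrb4a, another inhibitory receptor, was 154 CPM against 18.7 CPM, 8.22-fold, but 2.08-fold (0.37 to 8.08) and 4.01-fold under the matched choices. Il10ra, the receptor for interleukin-10, was 222 CPM against 67.4 CPM, 3.30-fold. Cd300a was the other way, at 167 CPM against 326 CPM, and 3.28-fold lower with Cd209a as the choice in both. Among Fc receptors, Fcgr2b, the inhibitory receptor for IgG, was 346 CPM against 75.8 CPM, 4.56-fold. Fcgr3, an activating one, was 158 CPM in 33 members and 9.36 CPM in the LSM cells, 16.9-fold (8.23 to 38.1), and 5.27-fold under the 5-gene rule in both libraries. Their adaptors Tyrobp and Fcer1g were at ratios of 0.95 and 0.99.

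Chemokines did not move one way. Ccl6 was 556 CPM against 232 CPM and Ccl9 380 CPM against 113 CPM, 2.39-fold and 3.36-fold higher, both being myeloid chemokines of mice. Cxcl16, the ligand of CXCR6 that liver lymphocytes carry, was 128 CPM in 18 members and 17.8 CPM in the LSM cells, 7.21-fold higher, but 1.54-fold (0.16 to 7.44) on 2 UMIs with Cd209a as the choice in both and 3.10-fold under the 5-gene rule. Ccl4, an inflammatory chemokine of lymphocytes and macrophages, was 55.6 CPM against 329 CPM, 5.92-fold lower, and 10.3-fold lower under the 5-gene rule. Ccl5 was 9.02-fold higher, and 4.18-fold (3.10 to 5.62) under the 5-gene rule, at 346 CPM against 38.4 CPM, in a library whose CD3 cells held 21602 CPM of it. Xcr1 Tlr3 cells of that library had 121 CPM of Ccl5. The share of free RNA in the Ccl5 of the members was not tested. Of 11 chemokine genes, 5 were at least 2-fold higher and 2 lower, and with Cd209a as the choice in both 2 of 9 were higher and 3 lower.

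Of 15 transcription factor genes, 3 were at least 2-fold higher, a share near the 18.1% over all genes, and 0 were lower, with a median log2 ratio of -0.13. By TMM 2 were higher and 3 lower. With Cd209a as the choice in both, 1 of 12 was higher and 3 lower, Batf3 by 3.28-fold and Cebpb by 2.91-fold among them. Zeb2, a transcription factor of monocyte and dendritic cell development, was 436 CPM in 56 members and 118 CPM in the LSM cells, 3.69-fold higher (2.82 to 4.83), and 3.72-fold and 3.61-fold under the matched choices. Cebpa, of monocyte precursors, was 111 CPM against 44.9 CPM, 2.47-fold, and 1.12-fold with Cd209a in both. Irf8, of type 1 dendritic cells and monocytes, was 201 CPM against 297 CPM, and at a ratio of 0.26 (0.031 to 0.99) on 2 UMIs with Cd209a as the choice in both. Irf4, of type 2 dendritic cells, was 21.4 CPM against 26.2 CPM. Klf4 stood at a ratio of 1.02.

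Adhesion genes were higher in 5 of 11 and lower in 2, and by TMM 3 were higher and 2 lower. Itgal, the integrin chain LFA-1, was 167 CPM against 37.5 CPM, 4.45-fold, and 2.67-fold under the 5-gene rule. Itga4 was 316 CPM against 95.5 CPM, 3.31-fold, and Cd44, the hyaluronan receptor, 252 CPM against 95.5 CPM, 2.64-fold.

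Immediate early genes were lower. These are switched on within minutes by signals and by handling. Of 10 genes, 5 were at least 2-fold lower and 0 higher, with a median log2 ratio of -1.08. Jun was 333 CPM (264 to 416) in the members and 1182 CPM in the LSM cells, 3.54-fold lower. Junb was 662 CPM against 1721 CPM, Jund 581 against 1508 CPM, and Ier2 282 against 781 CPM. Atf3, a stress-response factor, was 171 CPM against 614 CPM, 3.59-fold lower. Fosb was the other way by a little, at 175 against 140 CPM. The 6 heat shock genes had 0 past 2-fold in either direction, with a median of 0.02. S100 proteins, galectins and annexins were lower in 4 of 8 genes, with a median of -0.95. This count was 7 by TMM, 1 with Cd209a as the choice in both and 2 under the 5-gene rule. S100a4, a calcium-binding protein of motile cells, was 1227 CPM against 2166 CPM, and Lgals1, galectin-1, 547 against 1285 CPM, 2.35-fold lower.

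Several of these genes differed the same way in other cells of the same libraries. Cells with at least 2 UMIs of Xcr1 and Tlr3 numbered 66 in the CD122+CD49a+ library and 68 in the LSM library. Cells with at least 2 UMIs of Ace and Treml4, genes of nonclassical monocytes, numbered 14 and 205 at this depth. The ratio of the libraries for Ptprc was 4.10 for the members, 3.04 for the Xcr1 Tlr3 cells and 2.15 for the Ace Treml4 cells. For Mpeg1 it was 4.35, 3.75 and 4.18. For Jun it was 0.28, 0.20 and 0.16, and for Junb 0.38, 0.27 and 0.50. For Psap the values were 4.40, 1.82 and 3.30. For Fcgr2b they were 4.56, 2.32 and 7.81, and for Pirb 3.36, 1.29 and 4.35. Lilrb4a gave 8.22 in the members and 5.86 in the Ace Treml4 cells, and had 0 UMIs in the Xcr1 Tlr3 cells. In the 14 Ace Treml4 cells these 3 receptors had 8, 11 and 6 UMIs. By contrast, Lyz2 gave 3.50, 1.33 and 1.10, and Atf3 0.28, 1.80 and 0.67. The members and their LSM cells were chosen by different rules, while each other class was chosen by the same rule in both libraries. Under the matched choices given above, the Lyz2 ratio of the members lay nearer to those of the other classes. Fcgr3 gave 16.9 in the members and 1.63 (0.42 to 4.54) in the Ace Treml4 cells. All 3 ratios share the 2 libraries, and a library effect and a gate effect cannot be told apart. The difference between the classes was not tested.

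**Figure D3:**
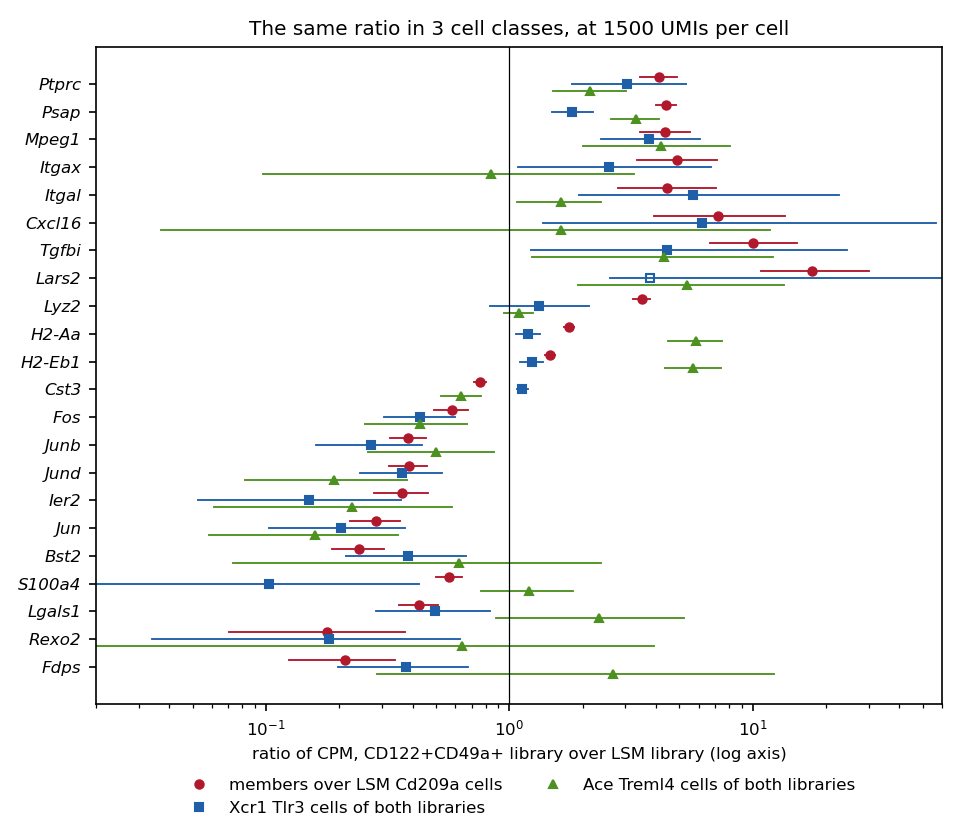
Ratio of CPM in the CD122+CD49a+ library over the LSM library (horizontal log axis, line at 1) for the members (red circles), Xcr1 Tlr3 cells (blue squares) and Ace Treml4 cells (green triangles), with 95% counting intervals. The open square is a lower bound. Ptprc and Mpeg1 lie right of 1 and Jun, Junb and Ier2 left of 1 in all 3 classes, while Lyz2 lies at 3.50 in the members and at 1.33 and 1.10 in the others. Only the members were set against LSM cells chosen by a different rule.

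The libraries also differed in ribosomal RNA sequence. Gm42418, a locus that overlaps ribosomal RNA sequence and that was picked here after its values were seen, took 1.11% of the UMIs of the members and 0.0394% of those of the LSM cells. It was 11090 CPM in the members, 3949 CPM in the Xcr1 Tlr3 cells, 8857 CPM in the Ace Treml4 cells and 2106 CPM in the CD3 cells of the same library, and 394, 333 and 1714 CPM in the Cd209a, Xcr1 Tlr3 and Ace Treml4 cells of the LSM library. Lars2, a mitochondrial leucyl-tRNA synthetase, was 346 CPM in the members, 371 CPM in the CD3 cells and 19.7 CPM in the LSM cells, 17.6-fold higher, and 8.82-fold with Cd209a as the choice in both. The median mitochondrial share was 2.39% in the members and 1.20% in the LSM cells. The part of library quality in the ratios was not tested.

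With the genes of the rule left out, the 12 genes with the largest ratio above the LSM cells were C3, Lars2, Fcgr3, Apoe, C1qb, Tgfbi, Fn1, Tnfrsf1b, Ccl5, Lilrb4a, Sdc3 and Cxcl16. C3, the central complement component, was 239 CPM (181 to 311) in 16 members and 5.62 CPM in the LSM cells, 42.6-fold (18.4 to 121), and 15.0-fold under the 5-gene rule. With Cd209a as the choice in both, C3 had 2 UMIs in the CD122+CD49a+ cells and 3 in the LSM cells, too few for a ratio. Of the 56 C3 UMIs of the members, 17 (30.4%) lay in 1 member. Tgfbi, a secreted matrix protein of macrophages, was spread over 56 members at 346 CPM against 34.6 CPM, 9.99-fold, and 2.40-fold with Cd209a as the choice in both. Fn1, fibronectin, was 111 CPM in 16 members against 11.2 CPM, 9.89-fold, and 4.85-fold under that choice. Sdc3, a heparan sulphate proteoglycan, was 222 CPM in 42 members against 29.0 CPM, 7.66-fold, with 6.93-fold and 5.73-fold under the matched choices. Tnfrsf1b, the second TNF receptor, was 103 CPM against 11.2 CPM, 9.13-fold, and 4.62-fold and 3.81-fold under them. Some of these genes were also higher in other cells of the CD122+CD49a+ library. Between the libraries Tgfbi was 4.47-fold higher (1.23 to 24.4) in the Xcr1 Tlr3 cells and 4.31-fold (1.24 to 12.2) in the Ace Treml4 cells. Cxcl16 was 6.18-fold (1.38 to 56.9) and 1.63-fold (0.037 to 11.7) higher there. Apoe stood at a ratio of 0.88 (0.70 to 1.11) in the Ace Treml4 cells.

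The 12 genes with the largest ratio below were Ly6d, Jchain, Cox6a2, Ctsl, Cdkn2d, Fkbp3, Cd7, Ccl4, Rexo2, Rraga, Fdps and Rnaset2b. The leading 4 had 0 UMIs in the members. Ly6d, a marker of lymphoid precursors and plasmacytoid dendritic cells, was 283 CPM in the LSM cells, in 47 of 712, at least 22.1-fold higher there than the 3-count floor over the members. Jchain, the joining chain of IgM and IgA, was at least 15.1-fold lower in the members and Cox6a2, of plasmacytoid dendritic cells, at least 12.5-fold lower. The 207 Jchain UMIs lay in 15 of 712 LSM cells, and with LSM cells chosen after thinning the bound for Jchain was 1.39-fold. In the LSM cells without a UMI of the 8 excluded genes, Ly6d was 0 CPM, Jchain 11.7 CPM and Cox6a2 3.50 CPM, so that these bounds rest on LSM cells that the rule for the members would have left out. Against the same LSM cells the bound for Ctsl was 1.46-fold. Cdkn2d, an inhibitor of cyclin D kinases, was 17.1 CPM in 3 members against 188 CPM in 168 LSM cells, a ratio of 0.091 (0.025 to 0.24), and of 0.096 with Cd209a in both. Cd7 was 68.4 CPM against 424 CPM, 6.20-fold lower, and 2.60-fold under that choice. Rraga, a GTPase of nutrient sensing, was 29.9 CPM against 163 CPM, 5.45-fold lower, with 5.19-fold and 5.66-fold under the matched choices. Fdps, of cholesterol synthesis, was 76.9 CPM against 363 CPM, 4.72-fold lower, and 3.14-fold with Cd209a in both. Other cells of the CD122+CD49a+ library also had less of some of these genes. In the Xcr1 Tlr3 cells Rraga was 3.64-fold lower (1.16 to 15.1) between the libraries. Rexo2 was 5.50-fold (1.59 to 29.3) and Fdps 2.67-fold (1.48 to 5.07) lower there. Rnaset2b went the other way in those cells, at a ratio of 1.51 (0.71 to 3.32), as did Fdps in the Ace Treml4 cells (2.66, 0.29 to 12.2).

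Among the members, cells with C1q transcripts were mostly cells without Cd209a. C1qa, C1qb and C1qc encode the chains of C1q, which starts the classical complement pathway and is made by macrophages. At 1500 UMIs, 13 of 77 members with 0 Cd209a UMIs held 73 C1q UMIs, or 632 CPM (495 to 795). Of 79 members with Cd209a, 0 held a C1q UMI, which allows up to 3.80% of cells with a C1q UMI at this depth (3 counts over 79 cells). On the deeper counts as deposited, C1q was seen in 21 of 117 members without Cd209a and in 2 of 111 with it, so the cells overlapped. In LSM cells under the same rule, C1q was 1001 CPM in 369 cells without Cd209a, in 23 of them, and 47.4 CPM in 464 cells with it, in 4 of them. In the members 1 cell held 27 of the 73 UMIs (37.0%).

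The regions before the start sites of Cd209a and C1qb are shown because C1q and Cd209a transcripts lay mostly in different members. Members without Cd209a on the counts as deposited had to be chosen by the other genes of the rule, so this split follows the choice in part. Csf1r, 1 of those genes, was 820.5 CPM in the members with C1q and 340 CPM in those without. Each line gives the 250 bases before the RefSeq start (GRCm38.p6), 5′ to 3′ on the strand of the gene. Capitals mark matches to GAGGAA or its complement TTCCTC, letters of 1 form of the site bound by PU.1, whose gene Spi1 the members carry. The shorter core GGAA was not marked, and it occurs in both stretches.

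Cd209a: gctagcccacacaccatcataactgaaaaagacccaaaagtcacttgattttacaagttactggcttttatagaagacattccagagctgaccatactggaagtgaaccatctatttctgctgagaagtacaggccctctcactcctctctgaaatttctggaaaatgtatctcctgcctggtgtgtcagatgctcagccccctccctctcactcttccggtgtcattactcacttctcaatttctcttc

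C1qb: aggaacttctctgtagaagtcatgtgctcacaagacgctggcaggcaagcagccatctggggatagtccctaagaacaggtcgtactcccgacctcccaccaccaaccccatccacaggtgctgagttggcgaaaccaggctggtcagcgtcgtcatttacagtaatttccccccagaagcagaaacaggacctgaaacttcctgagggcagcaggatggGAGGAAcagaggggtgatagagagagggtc

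The Cd209a stretch is chr8:3748985-3749234 on the minus strand, upstream of the gene, and holds 0 matches. The C1qb stretch is chr4:136886201-136886450 on the minus strand and holds 1 match, whose first letter lies 30 bases before the start site on the strand of the gene. The same stretch of Ms4a6c, a gene of the rule, was also searched and holds 0 matches. Of 32851 mouse promoters of this length in the table, 23.3% hold such letters. A match is a description and not a binding site, and its absence says only that these letters are not in this window.

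The 13 members with C1q differed from the other 143 in more genes, at a like depth as deposited (medians of 2503 and 2421 UMIs). Lyz2 was 11128 CPM (9697 to 12712) with C1q and 3911 CPM without. Apoe, the apolipoprotein of macrophages and hepatocytes, was 2718 CPM (2036 to 3555) against 396 CPM. Cst3, cystatin C, a protease inhibitor abundant in dendritic cells, went the other way at 2103 CPM (1509 to 2852) against 5608 CPM. Ms4a4c had 1 UMI in the 13 cells and 336 CPM in the others. Ccr2 was 1180 CPM against 797 CPM and the class II list 62974 CPM against 54079 CPM. The Kupffer cell genes Clec4f, Vsig4, Timd4, Cd5l and Marco had 0 UMIs in all 156 members. These cells were picked by C1q, so the contrasts are a description of 13 cells.

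The higher Apoe, C1qb and C1qa of the members depended on which LSM cells they were set against. Apoe was 14.0-fold and C1qb 13.3-fold higher than in the LSM cells with Cd209a, and C1qa 5.97-fold. Under the 5-gene rule in both libraries Apoe was 637 CPM in the CD122+CD49a+ cells and 929 CPM in the LSM cells, C1qb 181 and 199 CPM, and C1qa 76.0 and 160 CPM. For C1qb the interval of that ratio spans 1 (0.91, 0.64 to 1.26). With Cd209a as the choice in both Apoe was 1.91-fold higher (0.76 to 4.29).

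Ranges of Cd209a showed what else went with it. The members were divided into 77 with 0, 56 with 1 to 2 and 23 with 3 or more Cd209a UMIs after thinning, and their medians as deposited were 2478, 2247.5 and 2481 UMIs. Lyz2 was 6667 CPM (6204 to 7155), 2107 CPM and 3159 CPM in these ranges. Csf1r was 606 CPM (472 to 766), 131 CPM and 232 CPM. Members were chosen on the counts as deposited and the ranges cut after thinning, so cells of the first range can hold Cd209a as deposited. Those without Cd209a as deposited had to reach 2 UMIs by the other genes. Higher Csf1r, Ccr2 and Ms4a6c in the first range are therefore favoured by the rule, although Ms4a6c was 667, 559.5 and 696 CPM. Irf8 was 312 CPM (218 to 432), 119 CPM and 29.0 CPM, and C3 407 CPM (299 to 541), 95.2 CPM and 29.0 CPM. Tgfbi was 519 CPM, 167 CPM and 203 CPM, and Cybb 866 CPM, 429 CPM and 406 CPM.

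**Figure D4:**
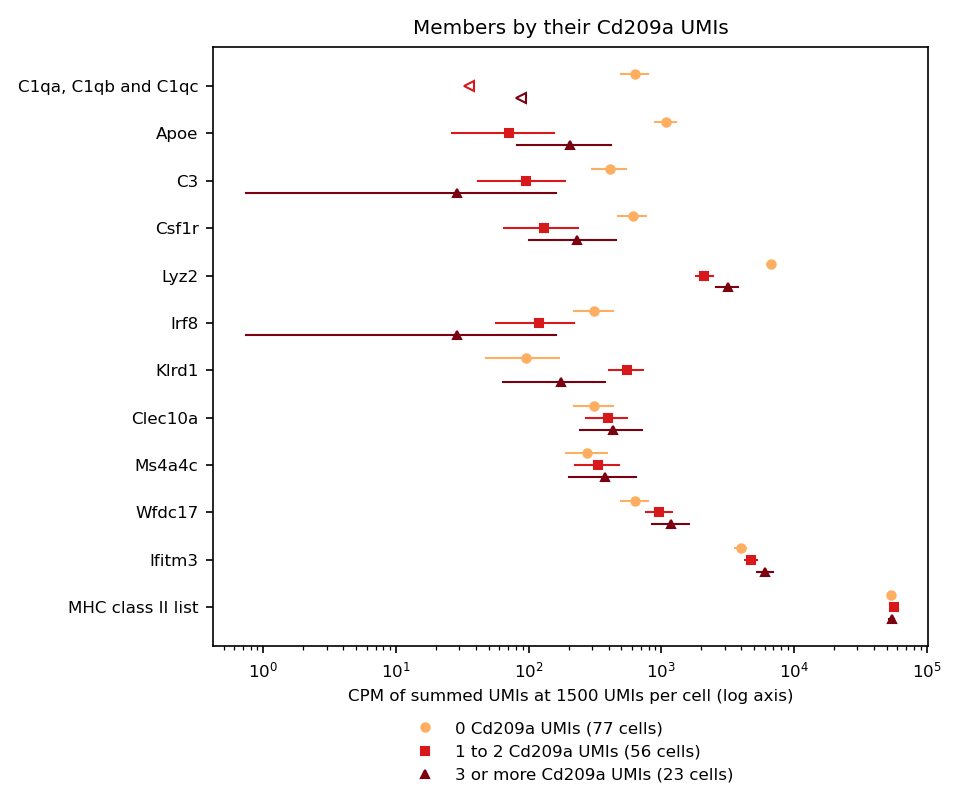
CPM at 1500 UMIs per cell (horizontal log axis) in members with 0 (77 cells, orange circles), 1 to 2 (56 cells, red squares) and 3 or more Cd209a UMIs (23 cells, dark triangles), with 95% counting intervals. Open triangles mark 0 UMIs at the value of 3 counts. C1q, Apoe, C3, Csf1r and Lyz2 are highest in cells with 0 Cd209a UMIs at this depth, and the class II list is at 53810, 56298 and 54609 CPM.

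Some genes were level or higher with Cd209a, and others followed no order over the 3 ranges. Wfdc17 was 632 CPM (495 to 795) at 0 UMIs, 964 CPM at 1 to 2 and 1188 CPM (853 to 1612) at 3 or more. Ifitm3, an interferon-induced membrane protein, was 3974 CPM, 4762 CPM and 6087 CPM. The S100 and galectin list was 5913 CPM, 7226 CPM and 8754 CPM, with intervals that do not overlap between the first and the last. Clec10a was 312, 393 and 435 CPM, with overlapping intervals. Klrd1 was 95.2 CPM (47.5 to 170) at 0 UMIs and 548 CPM (401 to 730) at 1 to 2, in 25 of 56 cells, and 174 CPM (63.8 to 378) at 3 or more. Cd209d, another lectin of the Cd209 cluster, had 0 UMIs in the 77 cells with 0 Cd209a UMIs. It was 119 CPM in the 56 with 1 to 2 and had 1 UMI (29.0 CPM) in the 23 with 3 or more. The class II list stayed between 53810 and 56298 CPM. Tyrobp was 2978, 2726 and 2927 CPM.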

How the data were processed

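Gene by cell matrices of whole-number UMI counts, not normalised, were deposited by the authors. The matrices carry software version 3.0.1, per the file headers. The submitters' processing notes list STAR, Seurat 2.3.0 and build GRCm38. How barcodes were picked was not given in the sources used here. Of 27998 gene identifiers, 27645 (98.7%) were in GENCODE M21.

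The members, gene lists and rules were chosen with earlier results of these data known. Named genes include list genes with the highest CPM and the 12 with the largest ratio up and down (at least 30 UMIs, and 100 CPM in the higher group). Rule, ribosomal, mitochondrial, numbered and receptor segment genes were left out of that ranking. Other genes, some at low counts, were named without such a rule. Doublets were kept, since Scrublet (scanpy 1.11.5) marked 0.423% of the CD122+CD49a+ and 0.319% of the LSM barcodes. Removing the 22 and 79 with the highest scores was an alternative.

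Cells were thinned without replacement to 1500 UMIs and shallower cells left out. Sums carry exact Poisson intervals, shares Clopper-Pearson intervals and ratios exact conditional intervals. A group at 0 was set to 3 counts, and such a ratio is a bound. The code was checked on simulated data. Alternatives covered cell limits, thinning, the choice of cells, the UMI minimum and scaling (edgeR 4.0.16, DESeq2 1.42.0). Trac, Trbc2, Clec6a and Clec7a had no row. The UMIs of both Itgam identifiers were summed.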

Additional observations from a re-analysis of the deposited data

How the results depend on the processing

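The share of members in the CD122+CD49a+ library was 29.06% among cells with 1000 or more genes and no more than 5% mitochondrial UMIs and 15.38% with 3 summed UMIs, against 18.27%. The genes tested changed with the setting, so each count is given with them. Of 3936 genes, 711 were at least 2-fold higher. The count was 2076 of 7452 without thinning and 433 of 2636 with LSM cells chosen after thinning. It was 157 of 1867 with Cd209a choosing both groups and 2290 of 11574 with no UMI minimum. Of the 3936 genes, 332 were higher by TMM and 343 by DESeq2 size factors. The count at least 2-fold lower was 560 of 3936, and 342 of 2636 with LSM cells chosen after thinning. It was 382 of 1867 with Cd209a choosing both groups and 898 of 11574 with no UMI minimum. Of the 3936 genes, 1180 were lower by TMM and 1131 by DESeq2 size factors. Under the other settings these counts stayed within 1.5 times. With the 5-gene rule in both libraries the log2 ratio turned to -0.54 for Apoe, -1.08 for C1qa, -0.14 for C1qb and -0.36 for Cxcl2. With Cd209a choosing both groups it turned to -1.01 (-6.42 to 1.70) for Ctsd and -0.60 (-3.74 to 1.43) for Fabp5. Those groups hold other cells. Of 90 named genes past 2-fold, 73 were past it by TMM and 86 in a second random draw. With Cd209a choosing both groups 54 of 79 were past it, the lowest share of any setting, and with the 5-gene rule in both 74 of 88. LSM cells with no excluded gene, an alternative chosen after seeing the data, gave 623 higher and 424 lower of 3466 genes. No replicate could be left out, and no paired analysis was possible because each gate had 1 library. At 1500 UMIs over 156 cells, 3 counts equal 12.8 CPM, which is the limit that a count of 0 allows.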

Other observations

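Of the 398 CD122+CD49a+ barcodes under 500 detected genes, 58 met the rule for the members on the 5 chosen and 8 excluded genes, with a median of 624 UMIs. By the rule for CD3 cells, 121 of these barcodes held CD3 transcripts. In the LSM library, 1186 of 3065 cells met the rule for the members on the counts as deposited, which were deeper.

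Some transcripts of the members were held by few cells. Lyz1, a lysozyme gene close to Lyz2 in sequence, had 19 UMIs in 3 of 156 members, 13 of them in 1 cell. How the counting split reads between these genes is not known. Cxcl9, an interferon-gamma induced chemokine, had 72 UMIs in 16 members, and Cxcl10 35 in 7. Lpl, lipoprotein lipase, had 12 UMIs in 4 members, and all 4 held Csf1r. Wdfy4, needed for cross-presentation in type 1 dendritic cells, had 32 UMIs in 25 members although Xcr1 and Tlr3 were barred, and Clec9a, a lectin of those cells, had 11 UMIs in 11. Mki67, of dividing cells, had 7 UMIs in 4 members.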
